A study of Mus musculus with 6 samples.

Results

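The mitochondrial ribosomal protein (MRP) genes were followed in innate lymphoid cells (ILCs, lymphocytes without rearranged antigen receptors), sorted as Lin-Thy1.2+ from the lungs of 3 RBM3KO and 3 WT mouse samples. The members are the genes of the deposited table whose symbol starts with Mrpl or Mrps and a digit, which gave 76 genes of 14416. There were 0 pseudogenes among them, and all 76 passed the filter on low counts. Both groups are on the C57BL/6J background and both received the mould extract Alternaria alternata, at a dose of 25 µg, 3 times over 7 days, so no sample comes from an unchallenged lung. RBM3KO mice lack the RNA-binding protein RBM3, and the promoter, exon or line behind the knockout allele, the age and the number of animals per sample do not appear in the sources used here. By its title the series addresses RBM3 as a brake on ILCs and on inflammation of the lung, and setting RBM3KO against WT asks how these transcripts differ without it.

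Mitochondria keep a small genome whose mRNAs encode core subunits of the respiratory chain and the ATP synthase, and a dedicated ribosome inside the organelle translates them. Its ribosomal RNAs are mitochondrial, whereas all of its proteins are encoded in the nucleus, made in the cytosol and imported. The small subunit reads the mRNA and the large subunit forms the peptide bond, and many of the proteins have bacterial homologues while others exist only in mitochondrial ribosomes. In lymphocytes, activation and growth are accompanied by the making of mitochondria, for which this ribosome is needed. By their known place in the mammalian ribosome, 49 members belong to the large subunit and 26 to the small subunit. Mrps36 was assigned to neither, since its product is an adaptor of the 2-oxoglutarate dehydrogenase complex. Mrps18a and Mrps30 count as large subunit proteins in spite of their names.

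Transcription of such genes is known to use NRF1, the ETS factor GABP and YY1, so the promoter letters are shown before the expression values. RefSeq windows (GRCm38.p6, from 250 bases before to 50 after a start) were found for 67 of the 76 members, in 73 windows. The 4 windows printed here are those of the members with the smallest p-values in the comparison below that have a window, and capitals mark a match to one of 4 motifs on either strand, namely the NRF1 core GCGCANGCG, the ETS letters CCGGAAG, the YY1 letters AAGATGGC and the E-box CACGTG.

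Mrpl30, chr1:37890227-37890526, plus strand:
Mrpl30: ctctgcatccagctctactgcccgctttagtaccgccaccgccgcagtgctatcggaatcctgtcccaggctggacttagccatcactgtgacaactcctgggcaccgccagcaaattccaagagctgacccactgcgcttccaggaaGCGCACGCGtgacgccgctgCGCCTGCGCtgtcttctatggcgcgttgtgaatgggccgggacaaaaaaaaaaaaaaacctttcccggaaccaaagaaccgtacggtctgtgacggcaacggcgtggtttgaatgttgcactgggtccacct
Mrps7, chr11:115603890-115604189, plus strand:
Mrps7: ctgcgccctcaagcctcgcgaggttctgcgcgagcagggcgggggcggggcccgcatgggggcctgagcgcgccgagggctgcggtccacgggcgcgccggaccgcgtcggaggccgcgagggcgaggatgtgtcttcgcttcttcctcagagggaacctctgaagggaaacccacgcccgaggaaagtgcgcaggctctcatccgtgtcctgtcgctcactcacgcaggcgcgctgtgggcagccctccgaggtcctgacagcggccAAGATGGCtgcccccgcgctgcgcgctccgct
Mrps2, chr2:28467816-28468115, plus strand:
Mrps2: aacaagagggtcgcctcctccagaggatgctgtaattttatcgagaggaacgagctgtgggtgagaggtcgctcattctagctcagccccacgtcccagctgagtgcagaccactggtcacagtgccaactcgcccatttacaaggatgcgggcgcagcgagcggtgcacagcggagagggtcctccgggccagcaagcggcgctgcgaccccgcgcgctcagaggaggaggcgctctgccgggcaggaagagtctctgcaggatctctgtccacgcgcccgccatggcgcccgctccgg
Mrps30, chr13:118387203-118387502, minus strand:
Mrps30: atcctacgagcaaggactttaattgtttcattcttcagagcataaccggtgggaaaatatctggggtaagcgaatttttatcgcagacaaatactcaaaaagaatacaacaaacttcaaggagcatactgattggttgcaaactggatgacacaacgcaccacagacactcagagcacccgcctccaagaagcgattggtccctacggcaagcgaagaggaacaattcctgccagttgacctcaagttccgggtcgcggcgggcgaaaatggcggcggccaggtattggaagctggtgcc

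The Mrpl30 window holds 2 NRF1 cores, 1 on each strand, that share no bases, and the Mrps7 window holds YY1 letters just after the start. The windows of Mrps2 and Mrps30 hold none of these letters. Across the members, the YY1 letters stood in 12 of 73 windows (16.4%), against 4.54% of 11315 windows of the other genes tested and 2.75% of all 32851 windows. The ETS letters stood in 24 member windows (32.9%), against 18.4% and 8.86% of those windows, and the NRF1 core in 15 (20.5%), against 13.7% and 6.25%. The E-box stood in 7 member windows (9.59%), against 10.04% and 7.15%. Windows of the same gene were counted separately, and all those of Mrpl2 hold the E-box. At least 1 of the 4 motifs stood in 46 member windows (63.0%), against 38.2% of windows of the other genes tested. For members with an unadjusted p under 0.05 below, 4 of 7 windows (57.1%) held at least 1 motif. The NRF1 core stood in 3 of these 7, the ETS letters in 1, the YY1 letters in 1 and the E-box in 0. Whether motifs go with the fold changes was not tested. These are matches of letters, not measured binding.

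The members also resemble each other in gene structure. Of the 76, 32 (42.1%) have the start of another protein-coding gene on the opposite strand within 1000 bases, against 1874 of 10843 other tested protein-coding genes (17.3%) in GENCODE M21. Their transcripts are short, with a median length of 1284 bases against 3047 bases for tested protein-coding genes, while the median GC content was 50.5% against 50.4%. The 76 genes lie on 17 chromosomes. Exons of 25 members share bases with another annotated gene, and for 15 that gene is protein-coding and on the opposite strand. The library protocol does not mark strand, so reads from such overlaps cannot be told apart.

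The total count was 15843924, 16936670 and 7498247 in RBM3KO replicates 1, 2 and 3, and 13339633, 16747682 and 25068137 in WT replicates 1, 2 and 3. Rbm3 itself was lower in every RBM3KO library, at 26.5, 22.4 and 31.6 CPM in the RBM3KO libraries, against 269.7, 314 and 293 CPM in the WT libraries (log2 fold change -3.45, SE 0.15, adjusted p = 2.23e-06 by edgeR). The cells carried the ILC markers that their label calls for: all 12 listed genes were measured, with Id2, a regulator that ILCs require, at 2067 ± 219.9 CPM in RBM3KO and 1700.0 ± 64.3 CPM in WT (SD, n = 3 each). Gata3, the regulator of group 2 ILCs, stood at 695 ± 141 CPM in RBM3KO and 639.9 ± 54.0 CPM in WT (SD, n = 3 each). Thy1, the sort marker, stood at 103 ± 7.17 CPM in RBM3KO and 104 ± 14.6 CPM in WT (SD, n = 3 each). Here and below, CPM is the read count scaled to a library of common size after TMM, a correction for library composition, except for summed levels, which are scaled to the total count unless stated. Values of 3 libraries stand in the order of replicates 1, 2 and 3, and a fold change is RBM3KO over WT.

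The members covered a wide range of levels. Per kb of transcript, the mean over the 6 libraries had a median of 48.4 CPM over the members, against 7.79 CPM over tested protein-coding genes, 237 CPM over nuclear oxidative phosphorylation (OXPHOS) subunits and 589.7 CPM over cytosolic ribosomal proteins. The highest level was that of Mrpl33, a small protein of the large subunit, with 431 ± 14.0 CPM per kb in RBM3KO and 407 ± 14.0 CPM per kb in WT (SD, n = 3 each). Mrps21, a small subunit protein with a bacterial homologue, followed at 235 ± 22.1 CPM per kb in RBM3KO and 207 ± 14.2 CPM per kb in WT (SD, n = 3 each). Below it stood Mrpl20, a homologue of a bacterial protein that joins the large subunit early in its assembly, at 182 ± 14.0 CPM per kb in RBM3KO and 194 ± 11.6 CPM per kb in WT (SD, n = 3 each). Mrpl4, which lines the peptide tunnel, followed at 188 ± 37.8 CPM per kb in RBM3KO and 182 ± 17.2 CPM per kb in WT (SD, n = 3 each). The levels of Mrpl20 and Mrpl4 did not differ beyond their spread. Mrpl14, whose product lies on the face of the large subunit that meets the small one, came next at 142 ± 9.16 CPM per kb in RBM3KO and 153 ± 1.74 CPM per kb in WT (SD, n = 3 each).

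The lowest levels per kb began with Mrpl47, at 1.98 ± 0.429 CPM per kb in RBM3KO and 1.86 ± 0.588 CPM per kb in WT (SD, n = 3 each). Mrpl1, the protein of the mobile L1 stalk, had 2.82 ± 1.49 CPM per kb in RBM3KO and 4.45 ± 2.31 CPM per kb in WT (SD, n = 3 each), and the spreads of these genes overlapped. The next in this order was Mrps31, at 7.75 ± 2.57 CPM per kb in RBM3KO and 7.46 ± 1.40 CPM per kb in WT (SD, n = 3 each). Mrpl50 stood at 7.08 ± 2.47 CPM per kb in RBM3KO and 8.56 ± 2.93 CPM per kb in WT (SD, n = 3 each). Mrps25 stood at 9.03 ± 1.34 CPM per kb in RBM3KO and 9.45 ± 1.02 CPM per kb in WT (SD, n = 3 each). These 3 did not differ from each other beyond their spread. The length is that of the longest GENCODE M21 basic transcript of each gene, so a gene read mainly as a shorter transcript is understated. Taking the transcript with the longest coding sequence, a choice made after seeing the data, changed the length of 5 members and kept the 4 highest and the 5 lowest. Mrpl52, named for this, then stood at 153 CPM per kb as the mean of both genotypes, before Mrpl14 at 147 CPM per kb, and the median over the members stayed at 48.4 CPM per kb. Among transcripts with an equal coding sequence this choice again takes the longest, so a gene read mainly as a shorter one of these is still understated. Exons of Mrpl47 share bases with Ndufb5 and Actl6a, and those of Mrps25 with Nr2c2, in each case on the opposite strand, and Mrpl33 shares exon bases with a noncoding transcript. The median level was 56.8 CPM per kb for the large and 41.4 CPM per kb for the small subunit, and 60.3 CPM per kb for members with a bacterial homologue against 38.2 CPM per kb for those found only in mitochondria. Mrps18a and Mrps18b were grouped with the latter, and Mrps18c with the former.

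**Figure D1:**
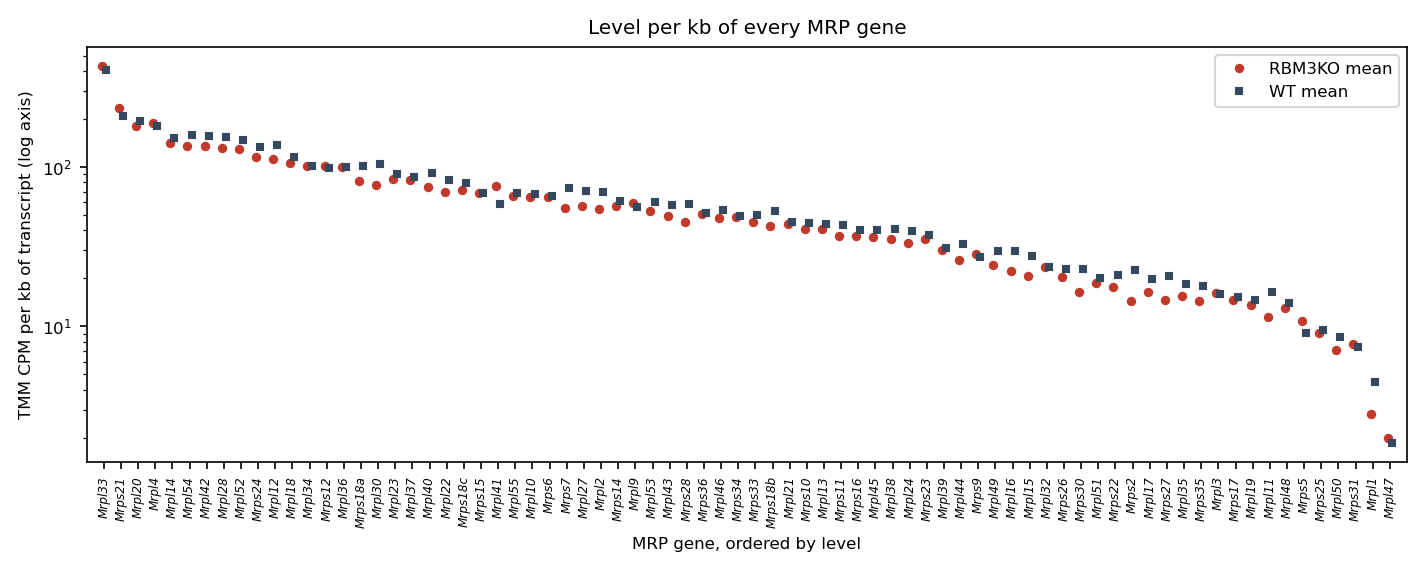
Level of each of the 76 MRP genes as TMM-scaled CPM per kb of transcript (vertical log axis), ordered by the mean of both genotypes (horizontal axis); red circles are RBM3KO means and dark squares WT means, n = 3 each. Mrpl33 stands highest and Mrpl47 lowest, and for most genes the 2 means lie close together, more often with RBM3KO below WT.

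Summed over the members, RBM3KO libraries held a smaller share of MRP reads. The sum was 5372, 5242 and 5251 CPM of the total count in RBM3KO replicates 1, 2 and 3, against 6194, 5978 and 5996 CPM in WT replicates 1, 2 and 3. The highest RBM3KO library thus stood below the lowest WT library, and the means were 5288 ± 72.2 CPM in RBM3KO and 6056 ± 119.6 CPM in WT (SD, n = 3 each), a difference of -12.7%. Scaled by TMM, the sums were 5547, 5298 and 5295 CPM in RBM3KO and 6102, 5879.7 and 5881 CPM in WT, again without overlap, and the difference was -9.65%. The large subunit genes summed to 3647 ± 63.6 CPM in RBM3KO and 4192 ± 61.1 CPM in WT, and the small subunit genes to 1607 ± 58.6 CPM in RBM3KO and 1827 ± 61.7 CPM in WT. Both subunits were thus lower by a similar share, -13.0% and -12.1%. In such bulk samples, fewer cells with many MRP transcripts and fewer transcripts per cell cannot be told apart. No p-value is given for these sums, since the members were chosen with results of the data known.

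**Figure D2:**
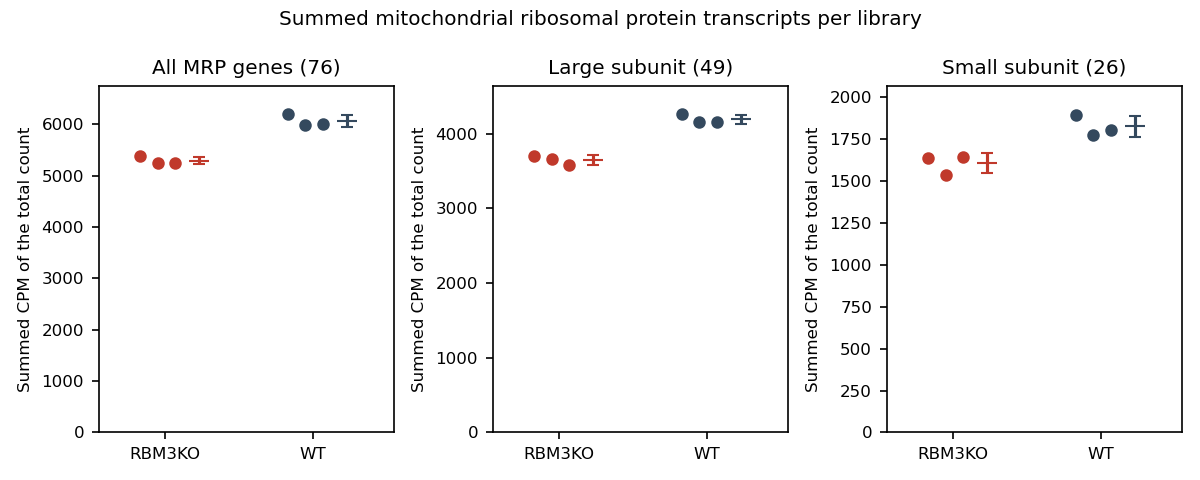
Summed CPM of the total count (vertical axis, from 0) in each RBM3KO and WT library for all 76 MRP genes, the 49 of the large subunit and the 26 of the small subunit; points are libraries, and the bars beside them are the mean and SD of 3. In each panel the 3 RBM3KO points lie below the 3 WT points.

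Other lists moved in the same libraries, and their part in the lower MRP sum was not tested. The 26 cell cycle genes summed to 2514, 2616 and 2483 CPM in RBM3KO, against 4893, 4182 and 4047 CPM in WT. With edgeR, 16 of them were called lower, where 114 of all 11382 genes tested were. The number of cell cycle genes called was 3 without WT replicate 1 and between 8 and 11 without any one of the other libraries. The 12 macrophage, monocyte and dendritic cell markers measured summed to between 2222 and 2692 CPM in RBM3KO and between 2970 and 4193 CPM in WT. Of that sum, the 3 MHC class II genes Cd74, H2-Aa and H2-Ab1 made up 2156 to 2628 CPM in RBM3KO and 2799 to 4168 CPM in WT, while the other 9 genes summed to 3.91 to 66.0 CPM in RBM3KO and 25.0 to 171 CPM in WT, with overlap. The 7 B cell markers summed to between 39.5 and 44.2 CPM in RBM3KO and between 63.6 and 88.6 CPM in WT. The 12 ILC markers summed to between 7780 and 8414 CPM in RBM3KO and between 5908 and 7104 CPM in WT. The 9 T cell markers overlapped, with 539 to 698 CPM in RBM3KO and 468 to 578 CPM in WT, as did 4 granulocyte and mast cell markers (82.7 to 119 CPM in RBM3KO, 65.6 to 108 CPM in WT), 8 markers of epithelium, stroma and endothelium (75.4 to 319 CPM in RBM3KO, 60.2 to 144 CPM in WT) and 2 of erythroid cells and platelets (0 to 1.70 CPM in RBM3KO, 0.239 to 1.35 CPM in WT). Most of the T cell sum came from Cd3g, with means of 243 CPM in RBM3KO and 177 CPM in WT, and Lat, with 335 and 273 CPM. Cd3d, Cd3e, Cd4, Cd8b1 and Cd28 each averaged at most 22.2 CPM in either genotype. Of all these cell type markers, 0 passed with edgeR. At an unadjusted p under 0.05, 8 of 12 ILC markers and 1 of 7 tested T cell markers were higher. Lower were 2 of 7 tested B cell markers and, of 10 tested genes of the macrophage list, H2-Aa and H2-Ab1. Over all genes, 5.46% were higher and 6.87% lower at that p. DESeq2 called 5 ILC markers higher and 2 B cell markers and 2 of the macrophage list lower, and limma-voom called 1 ILC marker higher. Of all genes tested, DESeq2 called 153 higher and 261 lower, and limma-voom called 56 higher. Igj, which encodes the immunoglobulin J chain, had no count in any RBM3KO library. The antigen receptor genes Trac, Trbc1, Trbc2, Ighm and Igkc were not analysed here.

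Gene by gene, 0 of the 76 members passed the test at an adjusted p under 0.05, in either direction (edgeR quasi-likelihood test, Benjamini-Hochberg adjustment over 11382 genes), where 1.25% of all genes did. DESeq2 and limma-voom also called 0. At an unadjusted p under 0.05, 8 members were lower in RBM3KO and 0 higher with edgeR. That is 10.5% of the members for lower, against 6.87% of all genes for lower and 5.46% for higher. Among genes at a mean of 10 CPM or more, a level that most members reach, 8.91% were lower. The lower members numbered 7 with DESeq2, 9 with limma-voom and 4 without WT replicate 1. In the same fits, 7.11%, 7.79% and 5.11% of all genes were lower at that p. The smallest adjusted p of any member was 0.170.

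The estimates themselves lay mostly on one side. They were below 0 for 62 members and above 0 for 14, with a median log2 fold change of -0.14, where 49.1% of all tested genes were below 0 and their median was 0.0087. The middle of the members, from the lower to the upper quartile, ran from -0.28 to -0.056. The same range was -0.29 to 0.27 for all genes and -0.20 to 0.21 for genes at a mean of 10 CPM or more. All 3 RBM3KO libraries stood below all 3 WT libraries for 17 members (22.4%). This held for 10.5% of all genes and 11.8% of those at a mean of 10 CPM or more. They stood above the WT libraries for 0 members, against 8.43% of all genes. The 51 members whose exons share no bases with another gene had 41 estimates below 0.

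The size of a difference that these data would allow can be read from the intervals. The median half-width of the 95% interval of a member's log2 fold change was 0.38, from 0.22 to 1.12. For 46 members the interval lay within a 1.5-fold change in either direction, and for 71 within a 2-fold change. For the other 5 members the interval reaches past a 2-fold change. The intervals are not adjusted for the number of genes.

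**Figure D3:**
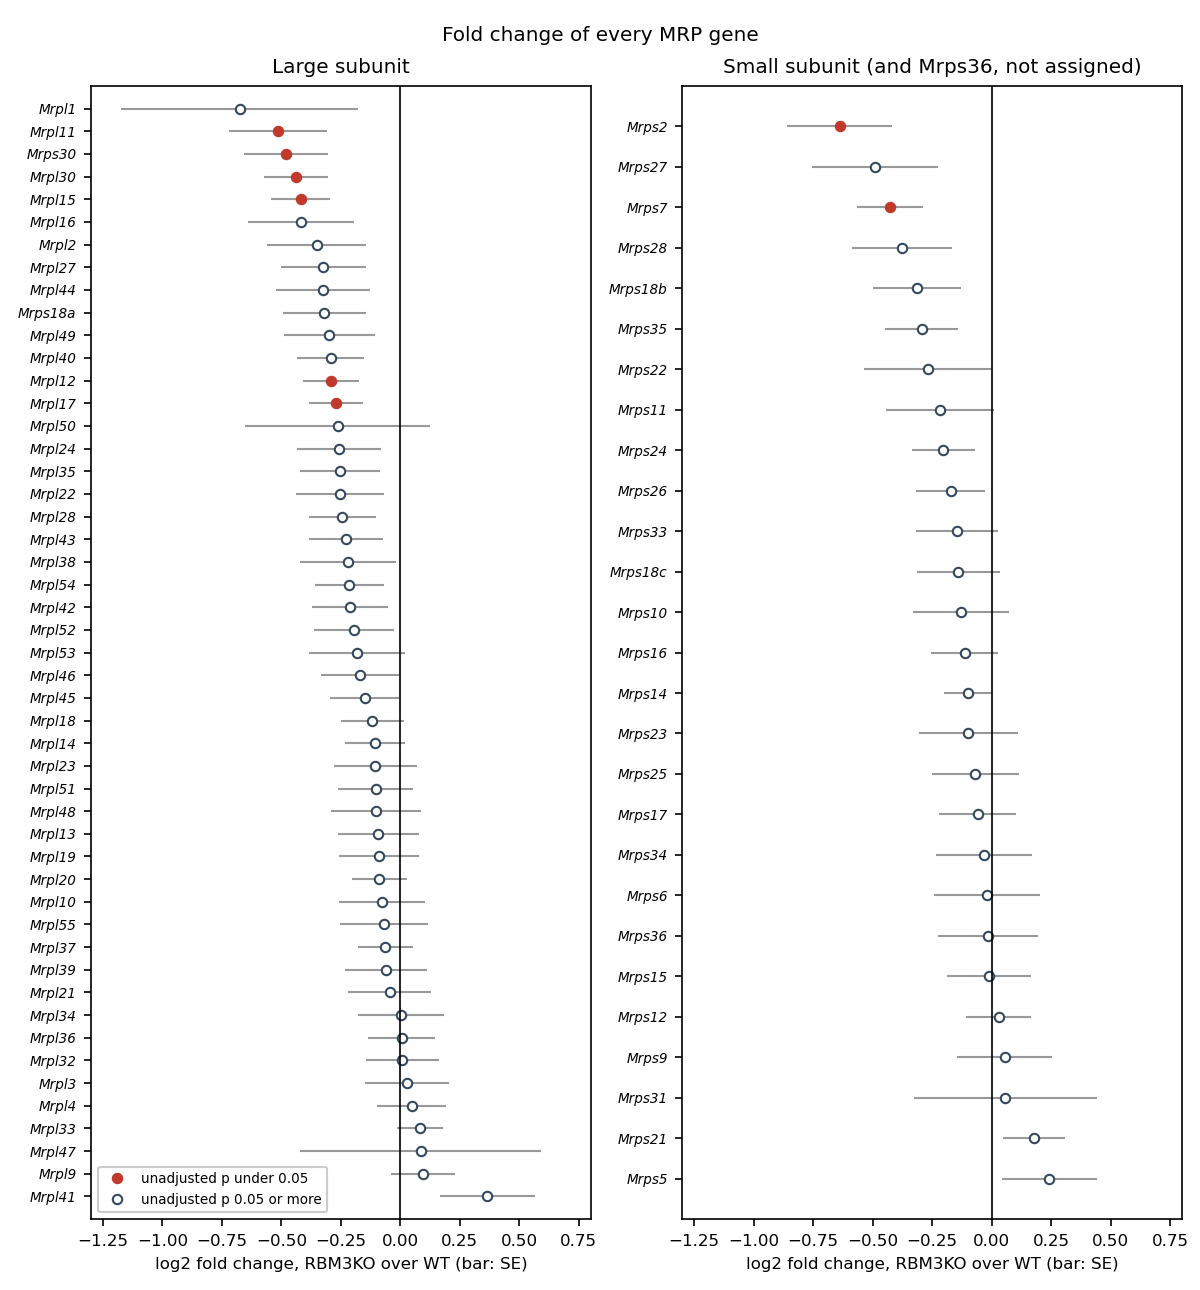
Log2 fold change of RBM3KO over WT (horizontal axis) with its SE for all 76 MRP genes, large subunit on the left and small subunit with Mrps36 on the right; filled red points have an unadjusted p under 0.05 and none passes after adjustment. Most points lie left of 0, with Mrpl1 and Mrps2 farthest to the left, and Mrpl41 lies farthest to the right.

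Among small subunit genes, 21 of 26 estimates were below 0, with a median log2 fold change of -0.12, and 0 passed. Mrps2, whose human gene is mutated in a combined respiratory chain deficiency, stood at 31.1, 25.6 and 33.4 CPM in the RBM3KO libraries, against 48.2, 38.7 and 53.1 CPM in the WT libraries. The RBM3KO libraries all lay below the WT libraries (chromosome 2, start 28468066; log2 fold change -0.64, SE 0.22, adjusted p = 0.236 by edgeR). Mrps7, a protein of the head of the subunit that binds rRNA, had 97.0, 119.8 and 108 CPM in the RBM3KO libraries, against 153, 125 and 158 CPM in the WT libraries. The highest RBM3KO library lay just under the lowest WT library (chromosome 11, start 115603925; log2 fold change -0.43, SE 0.14, adjusted p = 0.211 by edgeR), and exons of Mrps7 share bases with Gga3 and Mif4gd on the opposite strand. Mrps27, a pentatricopeptide repeat protein, had 23.8, 36.5 and 20.9 CPM in the RBM3KO libraries, against 34.1, 44.7 and 35.6 CPM in the WT libraries, and RBM3KO replicate 2 reached into the WT range (log2 fold change -0.49, SE 0.27, adjusted p = 0.510 by edgeR). Without 1 library its estimate lay between -0.77 (RBM3KO replicate 2 left out) and -0.34 (RBM3KO replicate 3 left out). Exons of Mrps27 share bases with a noncoding transcript on the opposite strand. Mrps35, found only in mitochondrial ribosomes, had 65.1, 56.4 and 59.8 CPM in the RBM3KO libraries, against 78.2, 75.4 and 68.7 CPM in the WT libraries, without overlap (log2 fold change -0.29, SE 0.15, adjusted p = 0.486 by edgeR).

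Other small subunit genes had estimates on both sides of 0, and 0 passed. Mrps12, a homologue of the bacterial protein at the decoding centre, averaged 89.2 ± 6.25 CPM in RBM3KO and 87.4 ± 6.34 CPM in WT (SD, n = 3 each), with log2 fold change 0.031, SE 0.14 and an interval of -0.27 to 0.33. Mrps16, linked to a human respiratory chain defect, averaged 95.6 ± 12.6 CPM in RBM3KO and 103 ± 5.11 CPM in WT (SD, n = 3 each; log2 fold change -0.11, SE 0.14). Mrps22, linked to another, averaged 21.0 ± 3.48 CPM in RBM3KO and 25.3 ± 3.88 CPM in WT (SD, n = 3 each; log2 fold change -0.27, SE 0.27). Mrps31 (log2 fold change 0.057, SE 0.38) and Mrps25 (log2 fold change -0.069, SE 0.18), both low per kb of transcript, had intervals that span 0. On the other side of 0 lay Mrps5, whose bacterial homologue helps to keep translation accurate, with 46.2, 43.4 and 55.5 CPM in the RBM3KO libraries, against 42.5, 34.8 and 45.0 CPM in the WT libraries (log2 fold change 0.24, SE 0.20, adjusted p = 0.726 by edgeR). Mrps21 had 104, 114 and 125 CPM in the RBM3KO libraries, against 108, 101 and 94.7 CPM in the WT libraries (log2 fold change 0.18, SE 0.13, adjusted p = 0.680 by edgeR). In both genes the genotypes overlapped. Mrps36, the adaptor outside the ribosome, averaged 35.6 ± 4.98 CPM in RBM3KO and 36.0 ± 3.00 CPM in WT (SD, n = 3 each), with an interval of -0.48 to 0.45.

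The 3 Mrps18 genes encode related proteins that sit at different places, Mrps18b and Mrps18c in the small and Mrps18a in the large subunit. Mrps18a averaged 71.7 ± 13.0 CPM in RBM3KO and 89.4 ± 11.4 CPM in WT (SD, n = 3 each; log2 fold change -0.32, SE 0.17, adjusted p = 0.513 by edgeR). Mrps18b averaged 45.9 ± 2.92 CPM in RBM3KO and 57.0 ± 8.41 CPM in WT (SD, n = 3 each; log2 fold change -0.31, SE 0.18, adjusted p = 0.559 by edgeR), and its RBM3KO libraries all lay below the WT libraries. Mrps18c averaged 58.9 ± 8.17 CPM in RBM3KO and 64.9 ± 6.37 CPM in WT (SD, n = 3 each; log2 fold change -0.14, SE 0.17, adjusted p = 0.851 by edgeR). None passed, and all 3 estimates were below 0. Exons of Mrps18b share bases with an antisense RNA on the opposite strand, and those of Mrps18c with another annotated gene on the same strand.

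Among large subunit genes, 40 of 49 estimates were below 0, with a median log2 fold change of -0.18, and 0 passed. The smallest p-value of the members was that of Mrpl15, a homologue of a bacterial large subunit protein (chromosome 1, start 4773206), with 84.9, 87.5 and 88.4 CPM in the RBM3KO libraries, against 107, 121 and 120.4 CPM in the WT libraries. The 3 RBM3KO values lay close together and below every WT value (log2 fold change -0.42, SE 0.12, adjusted p = 0.170 by edgeR). Mrpl30, another such homologue, whose promoter window with its NRF1 cores is printed above, had 75.7, 74.1 and 74.2 CPM in the RBM3KO libraries, against 93.9, 99.4 and 110.2 CPM in the WT libraries (log2 fold change -0.44, SE 0.13, adjusted p = 0.179 by edgeR), again without overlap and with RBM3KO values that nearly coincide. Mrpl17, which lies near the end of the peptide tunnel, had 127, 114 and 119 CPM in the RBM3KO libraries, against 146, 138 and 149.7 CPM in the WT libraries (log2 fold change -0.27, SE 0.11, adjusted p = 0.364 by edgeR). Mrpl16, whose bacterial homologue lies near the site where tRNAs bind, had 28.6, 22.6 and 25.8 CPM in the RBM3KO libraries, against 36.7, 32.1 and 34.1 CPM in the WT libraries (log2 fold change -0.42, SE 0.22, adjusted p = 0.502 by edgeR). Neither of these overlapped between the genotypes.

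The stalk that recruits translation factors is formed by Mrpl10, Mrpl11 and Mrpl12. Mrpl11, at its base, had 31.5, 39.8 and 33.4 CPM in the RBM3KO libraries, against 58.1, 44.4 and 47.1 CPM in the WT libraries (log2 fold change -0.51, SE 0.21, adjusted p = 0.333 by edgeR). Mrpl12, which also binds the mitochondrial RNA polymerase, had 152, 161 and 128 CPM in the RBM3KO libraries, against 188, 173 and 181 CPM in the WT libraries (log2 fold change -0.29, SE 0.12, adjusted p = 0.338 by edgeR). In both, the RBM3KO libraries lay below the WT libraries, and exons of Mrpl12 share bases with a noncoding RNA on the opposite strand. Mrpl10, which anchors Mrpl12, had 120.0, 131 and 78.5 CPM in the RBM3KO libraries, against 126, 115 and 108 CPM in the WT libraries, and the genotypes overlapped (log2 fold change -0.077, SE 0.18, adjusted p = 0.937 by edgeR). Its estimate was 0.11 without RBM3KO replicate 3, and exons of Mrpl10 share bases with a noncoding transcript on the opposite strand. Mrpl1, of the stalk on the other side, had 5.09, 9.37 and 15.6 CPM in the RBM3KO libraries, against 8.94, 13.6 and 24.9 CPM in the WT libraries (log2 fold change -0.68, SE 0.50, adjusted p = 0.680 by edgeR). Its libraries differed widely within each genotype, in RBM3KO by about as much as between the genotypes, and its estimate moved between -1.13 without RBM3KO replicate 3 and -0.18 without WT replicate 3.

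**Figure D4:**
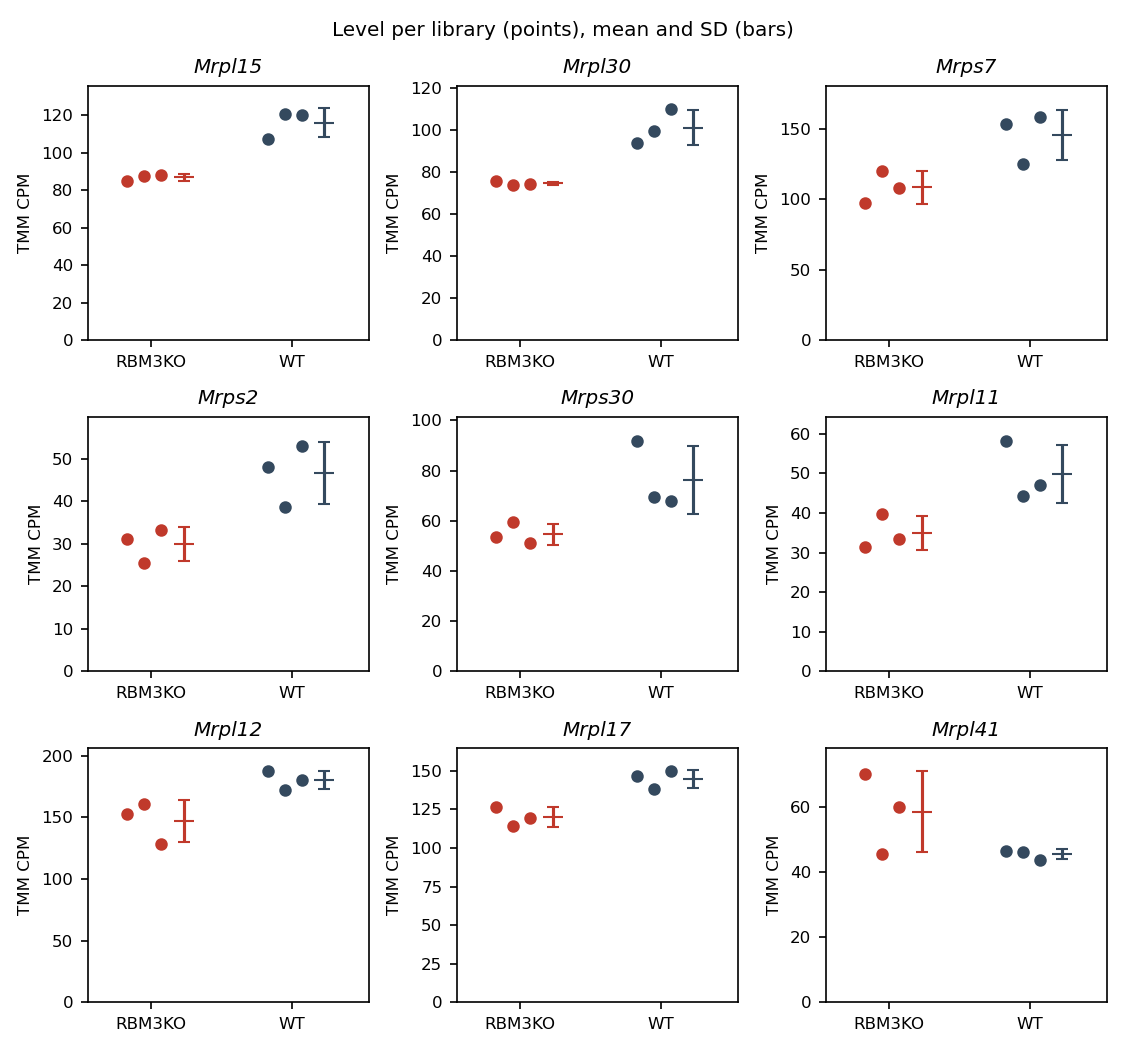
TMM-scaled CPM (vertical axes, from 0) in the 3 RBM3KO and 3 WT libraries for the 8 members with an unadjusted p under 0.05 and for Mrpl41, the member with the highest fold change; points are libraries, and the bars beside them are the mean and SD of 3. In the 8 panels RBM3KO points lie below WT points, while for Mrpl41 RBM3KO replicate 2 lies within the WT range.

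Several large subunit genes found only in mitochondria had estimates below 0 too. Mrps30 had 53.4, 59.4 and 51.0 CPM in the RBM3KO libraries, against 91.8, 69.4 and 67.8 CPM in the WT libraries (log2 fold change -0.48, SE 0.18, adjusted p = 0.274 by edgeR). Mrpl40, of the central protuberance, had 111, 89.1 and 85.1 CPM in the RBM3KO libraries, against 124, 114 and 113 CPM in the WT libraries (log2 fold change -0.29, SE 0.14, adjusted p = 0.436 by edgeR). Mrpl44, which has an RNase III fold and is mutated in a human cardiomyopathy, averaged 37.3 ± 5.15 CPM in RBM3KO and 46.8 ± 2.67 CPM in WT (SD, n = 3 each; log2 fold change -0.32, SE 0.20, adjusted p = 0.583 by edgeR). The genotypes did not overlap in any of the 3. Exons of Mrps30 share bases with another protein-coding gene on the opposite strand. Mrpl45, at the mouth of the peptide tunnel on the inner membrane, averaged 88.5 ± 0.232 CPM in RBM3KO and 98.1 ± 15.1 CPM in WT (SD, n = 3 each), and the genotypes overlapped (log2 fold change -0.15, SE 0.14, adjusted p = 0.788 by edgeR). Counted together, 27 of 29 members found only in mitochondria had an estimate below 0, with a median log2 fold change of -0.20, against 34 of 46 members with a bacterial homologue and a median of -0.11. Mrps18a and Mrps18b were counted among the 29, although the related Mrps18c was counted among the 46. The difference between these classes was not tested.

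The highest estimate belonged to Mrpl41, whose product has also been found to bind BCL2, with 70.3, 45.6 and 59.9 CPM in the RBM3KO libraries, against 46.3, 46.3 and 43.8 CPM in the WT libraries (log2 fold change 0.36, SE 0.20, adjusted p = 0.517 by edgeR). RBM3KO replicates 1 and 3 lay above the WT libraries and replicate 2 did not. Its estimate was 0.21 without RBM3KO replicate 1 and 0.52 without RBM3KO replicate 2. Mrpl9, a homologue of a bacterial protein, had 103, 103 and 91.7 CPM in the RBM3KO libraries, against 85.3, 100.5 and 93.0 CPM in the WT libraries (log2 fold change 0.095, SE 0.13, adjusted p = 0.873 by edgeR). Mrpl33 had 199.7, 206 and 213 CPM in the RBM3KO libraries, against 187, 197 and 199.7 CPM in the WT libraries (log2 fold change 0.083, SE 0.098, adjusted p = 0.840 by edgeR). Both estimates lay above 0, and the genotypes overlapped. Estimates within 0.1 of 0 were found for Mrpl4 (log2 fold change 0.047, SE 0.14), Mrpl3 (log2 fold change 0.026, SE 0.18), Mrpl36 (log2 fold change 0.0045, SE 0.14), Mrpl20 (log2 fold change -0.089, SE 0.12) and, on few counts, Mrpl47 (log2 fold change 0.086, SE 0.51). Mrpl14 (log2 fold change -0.11, SE 0.13) and Mrpl50 (log2 fold change -0.26, SE 0.39) lay further below 0. The signs of Mrpl3, Mrpl4, Mrpl36 and Mrpl47 turned without 1 or another library.

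The genes that work with this ribosome were set beside it. DESeq2 and limma-voom, like edgeR, called 0 genes of the 6 lists that follow. For scale, 6.87% of all genes were lower and 5.46% higher at an unadjusted p under 0.05 with edgeR. Of 7 mitoribosomal proteins that carry another symbol, 0 passed, and at an unadjusted p under 0.05 there were 0 with edgeR and DESeq2 and 1, lower, with limma-voom. Of the 7, 6 had an estimate below 0, with a median log2 fold change of -0.21. Dap3, a GTP-binding protein of the small subunit, had 88.8, 88.4 and 105 CPM in the RBM3KO libraries, against 122, 107 and 115 CPM in the WT libraries (log2 fold change -0.28, SE 0.13, adjusted p = 0.418 by edgeR). Aurkaip1, also of the small subunit, had 139, 142 and 116 CPM in the RBM3KO libraries, against 148, 147 and 157 CPM in the WT libraries (log2 fold change -0.19, SE 0.12, adjusted p = 0.615 by edgeR). Neither overlapped between the genotypes. Of 27 tested genes of ribosome assembly and rRNA modification, 0 passed, 1 had an unadjusted p under 0.05 with edgeR and DESeq2 (1 higher and 1 lower with limma-voom) and 17 were below 0 (median -0.18). That 1 gene was C1qbp, a matrix protein that mitochondrial translation needs, which averaged 125 ± 15.2 CPM in RBM3KO and 162 ± 11.2 CPM in WT (SD, n = 3 each; log2 fold change -0.38, SE 0.13, adjusted p = 0.233 by edgeR). Afg3l2, a protease that processes Mrpl32, averaged 128 ± 15.0 CPM in RBM3KO and 115 ± 13.8 CPM in WT (SD, n = 3 each; log2 fold change 0.14, SE 0.14, adjusted p = 0.793 by edgeR).

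Of 14 translation factors 0 passed, 0 had an unadjusted p under 0.05 with any of these tools and 9 were below 0 (median -0.12). Tufm, the elongation factor that brings tRNAs, averaged 164 ± 6.92 CPM in RBM3KO and 176 ± 23.5 CPM in WT (SD, n = 3 each; log2 fold change -0.10, SE 0.12). Letm1, a protein of the inner membrane, averaged 153 ± 20.4 CPM in RBM3KO and 163 ± 3.21 CPM in WT (SD, n = 3 each; log2 fold change -0.094, SE 0.12). Of 19 tested mitochondrial aminoacyl-tRNA synthetases and related enzymes 0 passed, 1 had an unadjusted p under 0.05 with edgeR and DESeq2 (1 higher and 1 lower with limma-voom) and 14 were below 0 (median -0.12). Tars2 averaged 69.9 ± 3.71 CPM in RBM3KO and 84.1 ± 6.82 CPM in WT (SD, n = 3 each; log2 fold change -0.27, SE 0.14). Fars2 averaged 48.1 ± 3.35 CPM in RBM3KO and 55.8 ± 13.7 CPM in WT (SD, n = 3 each; log2 fold change -0.21, SE 0.21). The 1 gene with the low p, Hars2, named after its value was seen, averaged 21.2 ± 7.93 CPM in RBM3KO and 36.2 ± 2.24 CPM in WT (SD, n = 3 each; log2 fold change -0.78, SE 0.29, adjusted p = 0.274 by edgeR). Of 16 tested genes of mitochondrial transcription and mRNA stability 0 passed, 0 had an unadjusted p under 0.05 with any of these tools and 8 were below 0 (median -0.023). Hsd17b10, a part of the tRNA-processing RNase P, averaged 209 ± 6.92 CPM in RBM3KO and 184 ± 12.4 CPM in WT (SD, n = 3 each; log2 fold change 0.18, SE 0.10). Polg, the mitochondrial DNA polymerase, averaged 100.3 ± 11.6 CPM in RBM3KO and 109 ± 11.7 CPM in WT (SD, n = 3 each; log2 fold change -0.11, SE 0.14). The 13 mitochondrially encoded mRNAs, which this ribosome translates, were not analysed here.

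Of 8 tested nuclear regulators of these genes 0 passed, and 2 were higher and 2 lower at an unadjusted p under 0.05. NRF1, YY1, MYC and the GABP complex are factors that read the motifs searched above. Nrf1 had 56.9, 76.9 and 52.8 CPM in the RBM3KO libraries, against 99.0, 86.1 and 83.6 CPM in the WT libraries (log2 fold change -0.52, SE 0.18, adjusted p = 0.232 by edgeR), with RBM3KO below WT. Myc, which drives growth and ribosome genes, had 123, 140.1 and 118 CPM in the RBM3KO libraries, against 83.6, 107 and 107 CPM in the WT libraries (log2 fold change 0.36, SE 0.14, adjusted p = 0.333 by edgeR), with RBM3KO above WT. Yy1, named after its value was seen like the next gene, had 13.0, 15.3 and 28.5 CPM in the RBM3KO libraries, against 28.9, 28.7 and 45.7 CPM in the WT libraries (log2 fold change -0.87, SE 0.34, adjusted p = 0.319 by edgeR), without overlap but with values close to each other in RBM3KO replicate 3 and WT replicates 1 and 2. Pprc1, a coactivator related to PGC-1, had 68.0, 45.6 and 39.0 CPM in the RBM3KO libraries, against 43.2, 27.3 and 19.4 CPM in the WT libraries (log2 fold change 0.77, SE 0.32, adjusted p = 0.349 by edgeR), with overlap. The GABP subunits, also named after their values were seen, gave estimates near 0, with Gabpa at 17.5 ± 7.97 CPM in RBM3KO and 18.0 ± 4.70 CPM in WT (SD, n = 3 each; log2 fold change -0.051, SE 0.40, adjusted p = 0.984 by edgeR). Gabpb1 averaged 62.5 ± 7.48 CPM in RBM3KO and 59.8 ± 19.5 CPM in WT (SD, n = 3 each; log2 fold change 0.068, SE 0.24, adjusted p = 0.958 by edgeR).

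Larger lists give the scale of the MRP estimates. The 81 tested cytosolic ribosomal protein genes had a median log2 fold change of -0.0072 with 51.9% of estimates below 0. The sum over the 82 measured was 60881, 53092 and 65553 CPM in RBM3KO, against 62888, 61277 and 62342 CPM in WT, with overlap. The 78 tested OXPHOS genes, which include partners of the proteins made by this ribosome, had a median of -0.067 with 71.8% below 0. The sum over the 80 measured was 22558, 22318 and 23021 CPM in RBM3KO, against 25046, 24294 and 24037 CPM in WT, without overlap. With edgeR, DESeq2 and limma-voom 0 genes of both lists passed. At an unadjusted p under 0.05 with edgeR, 6 OXPHOS genes (7.69%) and 2 cytosolic ribosomal genes (2.47%) were lower and 0 higher. Of all genes, 6.87% were lower and 5.46% higher at that p. The 26 cell cycle genes had a median of -1.03. Whether the MRP genes differ from these lists was not tested.

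**Figure D5:**
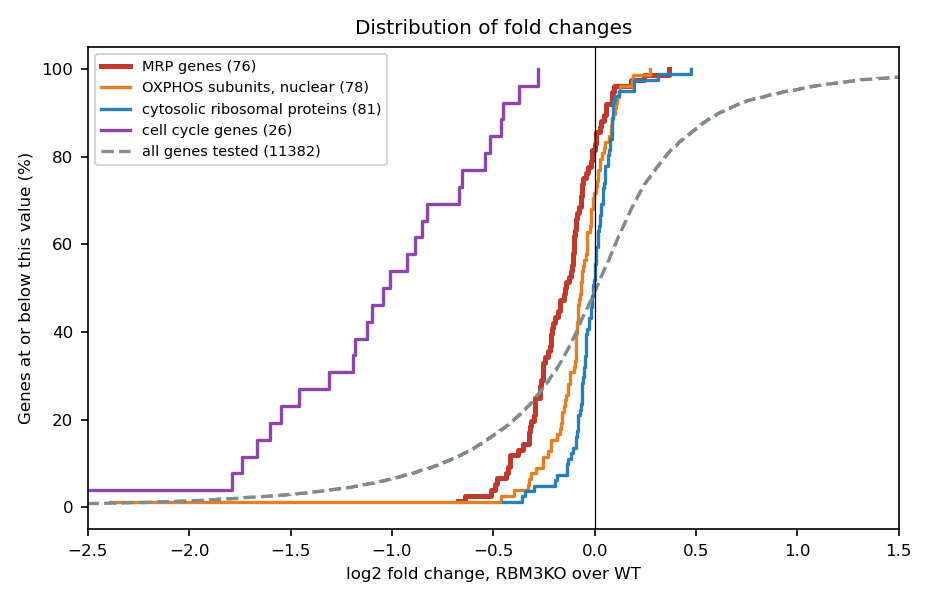
Share of genes (vertical axis, %) with a log2 fold change of RBM3KO over WT at or below the value on the horizontal axis, for the 76 MRP genes, 78 nuclear OXPHOS subunits, 81 cytosolic ribosomal proteins, 26 cell cycle genes and all 11382 genes tested. The MRP curve reaches 81.6% at 0, the OXPHOS curve 71.8% and the cytosolic ribosomal curve 51.9%, where that of all genes reaches 49.1%. The horizontal axis leaves out the tails of all genes and Cenpe, the lowest cell cycle gene.

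The neighbours across shared start regions were also read. Of the 32 members with an opposite start within 1000 bases, 28 had a partner that was tested. The median log2 fold change was -0.13 for these members and 0.012 for their partners, and 1 partner passed the test. That gene, Ncapd2, named after its value was seen, encodes a subunit of condensin and starts 100 bases from Mrpl51. Ncapd2 had 45.5, 61.4 and 51.4 CPM in the RBM3KO libraries, against 101, 102 and 102 CPM in the WT libraries (log2 fold change -0.95, SE 0.16, adjusted p = 0.0190 by edgeR). Mrpl51 had 71.0, 63.1 and 59.4 CPM in the RBM3KO libraries, against 74.5, 70.7 and 63.0 CPM in the WT libraries (log2 fold change -0.10, SE 0.16). Leaving out any library other than RBM3KO replicate 2 ended the Ncapd2 call, with an edgeR adjusted p between 0.0512 and 0.123, while its log2 fold change stayed between -0.95 and -0.85. Named for their position after values were seen, Mrps12 and Sars2, the mitochondrial seryl-tRNA synthetase, start 172 bases apart, with log2 fold change 0.031, SE 0.14 for Mrps12 and log2 fold change -0.44, SE 0.25 for Sars2. Mrpl46 and Mrps11, which are both members, start 412 bases apart, with log2 fold change -0.17, SE 0.16 for Mrpl46 and log2 fold change -0.22, SE 0.23 for Mrps11.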

How the data were processed

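The table that the authors deposited holds whole read counts, with genes in rows by symbol and each sample in its own column. The submitters' processing notes name featureCounts 1.6.5, STAR 2.6.1c, Bowtie 1.0.0 and mm10, with no role or order. No annotation or strand setting was found there. Per the labels' protocols, libraries from extracted RNA were made by Smart-seq2 and Nextera XT, which in standard form mark neither strand nor molecules, so PCR copies are counted and intervals cover these samples only. A count of 0 allows up to 3 counts, for counting error only.

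Genes were filtered with filterByExpr (11382 kept, 99.9% of counts), scaled by TMM and compared across genotypes with edgeR 4.0.16 (R 4.3.3, quasi-likelihood, robust, 3 against 3, no covariate). P-values were adjusted over all genes by Benjamini-Hochberg at 0.05. SE is the log2 fold change over the square root of F. The script was tested on simulated counts. Alternatives were DESeq2 1.42.0, limma 3.58.1 (voom), other scaling, filters and depth, a GC offset, a replicate block and leaving out each library. Symbols were matched to GENCODE M21, which uses the mm10 assembly (13038 by symbol, 1200 by an older one, 178 not matched). No 2 libraries were alike within sampling noise (lowest chi-square per degree of freedom 20.0). The labels do not say whether replicates are separate animals, so p-values measure the spread between these samples.

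The members and lists were chosen with earlier results of these data known. The text names members with the 12 smallest p-values, the 5 largest fold changes each way at 10 CPM or more, the 5 highest and 5 lowest levels per kb and 17 members with known roles, and from other lists genes past the threshold or the 2 with the highest mean. Not every list gene so taken is printed, and other genes are said to be named after their values were seen.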

Additional observations from a re-analysis of the deposited data

How the results depend on the processing

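Under all 16 alternatives of the edgeR fit, DESeq2 and limma-voom included, 0 members were called (4 to 9 lower and 0 or 1 higher at an unadjusted p under 0.05). The share of all genes that were lower at that p ran from 5.11% to 8.79%. For the members, the results were as follows. The median log2 fold change of the members kept its sign and moved by less than the spread between replicates, from -0.18 to -0.12 without 1 library, when 58 to 65 estimates were below 0. The summed MRP level, as the log2 ratio of RBM3KO to WT means, was -0.20, -0.15 with TMM library sizes, and -0.21 to -0.18 without 1 library. Over all genes, 28 were called higher and 114 lower, Rbm3 included. Higher genes numbered 153 with DESeq2, which called 261 lower, 56 with limma-voom, 48 without a filter and 59 with one of 10 CPM in 3 libraries. Without 1 library there were 1 to 18 higher and 11 to 85 lower genes. Fewer samples enter these fits, and for the others the cause was not tested. Of 60 named genes, 13 changed sign without 1 library, most with estimates near 0 but also Fars2 (-0.21), and another 23 moved by over 1.5 times without changing sign. With limma-voom Mrpl47 was at -0.017 and Mrps36 at 0.0057, at equal depth Mrpl3 was at -0.029, and with the GC offset and block Mrps31 was at -0.0060. Without 1 library the ranges were -0.082 to 0.18 for Mrpl3, -0.13 to 0.15 for Mrpl4, -0.22 to 0.11 for Mrpl10, -0.089 to 0.088 for Mrpl36, -0.12 to 0.34 for Mrpl47, -0.031 to 0.065 for Mrps12, -0.20 to 0.019 for Mrps25, -0.25 to 0.23 for Mrps31, -0.14 to 0.055 for Mrps36, -0.32 to 0.0067 for Fars2, -0.34 to 0.28 for Gabpa, -0.16 to 0.32 for Gabpb1 and -0.18 to 0.0076 for Tufm.

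Replicate numbers are shared by the genotypes, but deviations of same-numbered libraries correlated at 0.0555, 0.0574 and 0.0053, so the numbers were not taken as pairs. RBM3KO replicates 1 and 2 correlated best with their own number and replicate 3 did not. With the replicate block 0 members were called, their median was -0.14, and 31 genes were higher and 118 lower.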
